A study of Mus musculus with 20 samples.

Results

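The unfolded protein response (UPR) was followed at the level of mRNA through 10 genes of the endoplasmic reticulum (ER): *Hspa5*, *Hsp90b1*, *Dnajb9*, *Sdf2l1*, *Pdia4*, *Creld2*, *Herpud1*, *Edem1*, *Xbp1* and *Atf6*. They were taken by name from a table of RNA-seq read counts over 46078 genes in mouse liver. All 10 passed the filter on low counts, and each comparison was tested over the 14759 genes that did. The lowest count of any of the 10 in any library was 222.

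The livers came from 20 male mice, at least 9 weeks old, sampled at day 2 of defined amino acid diets. By the study's design for liver RNA-seq, food was restricted in every group, first on the control diet and then on the diets compared, although this is not stated apart for the set of mice analysed here. The enzyme cystathionine γ-lyase, encoded by *Cse* (symbol *Cth*), releases cysteine from cystathionine. Mice labelled WT are written *Cse*+/- here because the list of mice gives them as heterozygous. They were fed a control diet (n = 2), a diet lacking cysteine (no-Cys, n = 4) or a diet lacking tryptophan (no-Trp, n = 3). Mice labelled cse are *Cse*-/-. Of these, 4 were fed no-Cys, 3 were fed no-Trp, and 4 were fed no-Trp and given L-buthionine sulfoximine (no-Trp + BSO), an inhibitor of glutathione synthesis. The study's methods give the *Cse* knockout line a 129/C57BL/6 background and name no separate one for the *Cse*+/- mice. By its reporting summary, experimental and control mice shared a litter where possible. No *Cse*-/- liver on the control diet was analysed here, so the effect of the genotype alone cannot be told apart from that of the diets. Columns of the table carry mouse numbers (av17, for example) and were tied to these groups through the list of mice for the second experiment, the one the sample titles name. P values set a difference between groups against the spread between mice, which was estimated over all 6 groups together.

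Proteins that enter the secretory path fold in the ER, where disulfide bonds form between their cysteines. When unfolded protein accumulates there, the sensors IRE1 (gene *Ern1*), PERK (gene *Eif2ak3*) and ATF6 are released or activated. IRE1 splices *Xbp1* mRNA, ATF6 is cut by Golgi proteases into a transcription factor, and both outputs drive genes of folding and degradation. PERK phosphorylates eIF2α and so favours translation of *Atf4*, a step shared with GCN2, the kinase that senses a lack of amino acids. Hepatocytes, which secrete most plasma proteins, are rich in ER. Counts per gene show neither the splicing of *Xbp1* nor the cleavage of ATF6.

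Libraries held between 11785740 and 57986121 counts on genes (median 15252745). *Cth* separated the genotypes as labelled: its lowest *Cse*+/- library had 88.4 CPM (counts scaled to library size with TMM factors) and its highest *Cse*-/- library 14.4. All 6 hepatocyte markers were detected in every group. Their summed level was 44994 to 73708 CPM in *Cse*-/- livers on no-Cys and 91400 to 113403 in *Cse*+/- livers on that diet. Markers of bile duct cells summed to 16.4 to 28.8 and 46.1 to 57.9 CPM in the same groups. These sums mainly follow the most abundant marker of each list. Over the 20 libraries *Alb* had a mean of 55446 CPM, with *Cyp2e1* next among hepatocyte markers at 13043. *Spp1* had a mean of 35.2 CPM, with *Sox9* next among bile duct markers at 4.17. Markers of B and plasma cells, cells rich in ER, summed to at most 3.46 CPM in any library, and 2 of their 6 genes were high enough to be tested. In bulk tissue, fewer cells of a type and less RNA of its marker genes per cell cannot be told apart.

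The 10 genes fall into 3 roles. The folding group holds *Hspa5* (GRP78 or BiP, the main Hsp70 chaperone of the ER; chr2:34771970-34777547, + strand), *Hsp90b1* (GRP94, its Hsp90 chaperone; chr10:86690209-86705509, - strand), *Dnajb9* (ERdj4, a co-chaperone of BiP; chr12:44205559-44210326, - strand), *Sdf2l1* (a partner of ER co-chaperones; chr16:17130138-17132383, - strand), *Pdia4* (ERp72, a protein disulfide isomerase; chr6:47796141-47813430, - strand) and *Creld2* (a secreted and ER-resident cysteine-rich protein; chr15:88819646-88826683, + strand). The degradation group holds *Herpud1* (a membrane scaffold of the ER degradation complex; chr8:94386438-94395377, + strand) and *Edem1* (which hands misfolded glycoproteins to that complex; chr6:108828641-108859356, + strand). The transcription factors are *Xbp1* (chr11:5520659-5525893, + strand) and *Atf6* (chr1:170704674-170867771, - strand). Coordinates are those of GRCm38. The few genes that overlap these 10 were assigned few counts. The most was 804 over the 20 libraries together, for the antisense gene *1810014B01Rik*, against 273346 for *Hsp90b1*, which it overlaps. How reads in the overlaps were counted is not stated, so these counts do not show how many reads fell there.

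RefSeq promoters (GRCm38.p6) from 250 bases before to 50 after the start were searched on both strands for the known elements of the response, and 9 of the 10 genes had such a window. The ER stress response element, CCAAT and CCACG with 9 bases of any kind between them, was present in 3 of the 9 and in 0.119% of all 32851 promoters. Its second form, ATTGG and CCACG with 1 base of any kind between them, was present in 1 of the 9 and in 0.0365% of all promoters. These forms do not overlap in the windows below, which are shown because they are the only matches among the 10 genes. Each is written 5′ to 3′ on the strand of its gene, with the element in capitals (as its reverse complement for the proximal site of *Hsp90b1* and for *Creld2*).
Hspa5, chr2:34772020-34772048, + strand: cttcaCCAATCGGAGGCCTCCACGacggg
Hsp90b1 distal, chr10:86705623-86705671, - strand: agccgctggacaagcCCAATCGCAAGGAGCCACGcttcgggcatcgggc
Hsp90b1 proximal, chr10:86705518-86705566, - strand: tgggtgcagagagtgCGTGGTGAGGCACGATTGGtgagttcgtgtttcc
Creld2, chr15:88819505-88819553, + strand: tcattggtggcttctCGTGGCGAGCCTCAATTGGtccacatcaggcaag
Herpud1, chr8:94386362-94386402, + strand: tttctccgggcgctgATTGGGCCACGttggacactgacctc

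The elements of *Hspa5*, *Creld2* and *Herpud1* begin 65, 126 and 52 bases before the RefSeq start, and those of *Hsp90b1* begin 212 and 107 bases before it. The *Hspa5* element lies inside the gene as GENCODE annotates it, which begins further upstream. The unfolded protein response element TGACGTGG (0.676% of promoters) and the C/EBP-ATF element TGATGNAAT (0.965%), through which ATF4 acts, matched none of the 9 windows. A match is a description of the letters and not a binding site. Only exact letters within these windows were searched, so a missing match does not show that a gene lacks the element.

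In the control livers the order of the genes, as CPM per kilobase of exon, ran from *Herpud1* (267), *Hspa5* (152) and *Hsp90b1* (127) through *Xbp1* (60.6), *Pdia4* (50.2) and *Creld2* (49.1) to *Edem1* (23.4), *Dnajb9* (20.9), *Sdf2l1* (15.3) and *Atf6* (7.55). With 2 control livers, neighbours such as *Pdia4* and *Creld2* cannot be ordered. In *Cse*-/- livers on no-Cys the level per kilobase of *Hspa5* was 260.4 and that of *Herpud1* was 281, so that these 2 genes were close to each other at the top. *Dnajb9* reached 54.0 there, above *Edem1* at 24.2.

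**Figure D1:**
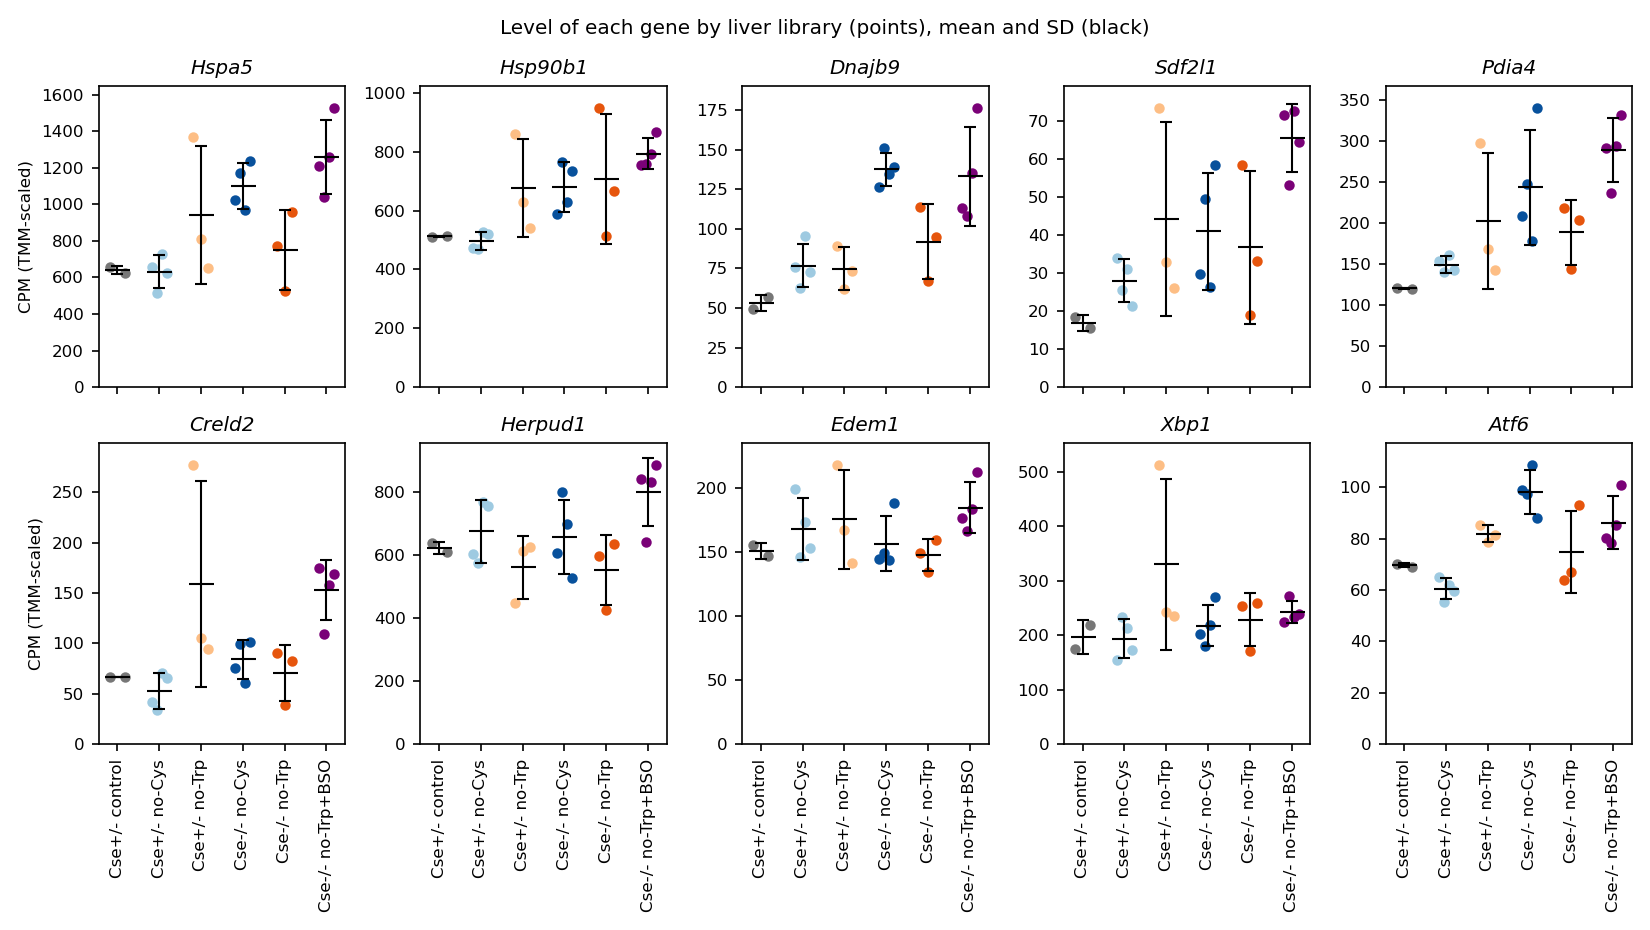
CPM (TMM-scaled, linear axis from 0) of the 10 genes in each of the 20 liver libraries, by group; points are mice, and black marks are the mean and SD. *Dnajb9* and *Atf6* show the *Cse*-/- no-Cys livers apart from the *Cse*+/- no-Cys livers (126 to 151 against 62.9 to 95.5 CPM, and 87.9 to 108 against 55.5 to 65.2 CPM).

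The first question was whether a lack of cysteine that the liver cannot make up moved these genes. On the no-Cys diet, 5 of the 10 were higher in *Cse*-/- than in *Cse*+/- livers and none was lower, where 11.6% of all genes tested were called higher and 12.2% lower. The 5 were *Hspa5*, *Dnajb9*, *Pdia4*, *Hsp90b1* and *Atf6*, that is, 4 of the 6 folding genes, 1 of the 2 transcription factors and none of the 2 degradation genes. The median log2 difference of the 10 was 0.61, against -0.01 for all genes. In the same contrast the levels of 12% of all genes in *Cse*-/- livers lay wholly above those of *Cse*+/- livers, and this held for the 5 called genes and for none of the other 5.

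*Hspa5* measured 1026, 1174, 968 and 1237 CPM in the 4 *Cse*-/- livers on no-Cys. In the 4 *Cse*+/- livers on that diet it measured 660.0, 515, 729.6 and 623 CPM. The groups did not overlap, and the lowest knockout liver was 968 against the highest heterozygous liver at 729.6. The log2 difference was 0.80 ± 0.20 (SE; 1.74-fold; 95% interval 0.39 to 1.22; adjusted p = 0.00642, edgeR quasi-likelihood test). *Dnajb9* measured 126, 151, 134 and 139 CPM in *Cse*-/- livers and 75.6, 62.9, 95.5 and 72.8 CPM in *Cse*+/- livers. Of the 10 genes it had the largest difference here, 0.84 ± 0.17 on the log2 scale (1.79-fold, adjusted p = 0.00142), and again the groups were apart. The disulfide isomerase gene *Pdia4* measured 208, 248, 178 and 340.1 CPM against 153, 141, 162 and 142 CPM. Its difference was 0.70 ± 0.21 (1.63-fold, adjusted p = 0.0174), with mouse av08 far above the other knockouts. *Hsp90b1* measured 588, 767, 629 and 735 CPM against 473, 471, 528 and 521 CPM. That is 0.45 ± 0.16 (1.36-fold, adjusted p = 0.0424), the smallest of the 5 differences. Without av08, neither *Pdia4* nor *Hsp90b1* was called, and 3 of the 10 were. *Hsp90b1* was also not called without av01, av02, av03, av04 or av06.

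*Atf6*, the gene of the sensor itself, had the smallest adjusted p of the 10. Its levels were 98.9, 97.2, 108 and 87.9 CPM in *Cse*-/- livers and 65.2, 55.5, 62.0 and 59.5 CPM in *Cse*+/- livers, which are well apart. The log2 difference was 0.70 ± 0.11 (1.62-fold, adjusted p = 0.000187). *Creld2* measured 75.4, 99.3, 61.1 and 102 CPM against 42.1, 34.1, 71.0 and 65.7 CPM, and the groups overlapped (0.66 ± 0.32, adjusted p = 0.139). For *Sdf2l1*, values of 29.7, 49.4, 26.4 and 58.3 CPM stood against 33.9, 25.5, 31.1 and 21.3 CPM, with a spread in the knockouts as wide as the difference (0.55 ± 0.33, adjusted p = 0.234). *Xbp1* ranged from 180.4 to 270.0 CPM in *Cse*-/- and from 155 to 234 CPM in *Cse*+/- livers (0.17 ± 0.21, adjusted p = 0.603). The degradation genes lay closest to 0, with *Herpud1* at -0.04 (95% interval -0.36 to 0.29) and *Edem1* at -0.10 (-0.38 to 0.17). These intervals leave out a rise of the size measured for *Hspa5* or *Dnajb9*. The lower summed level of hepatocyte and bile duct markers in these knockout livers moved with this contrast: 4 of 6 hepatocyte markers (median -0.69) and 2 of 5 tested bile duct markers (median -0.77) were called lower. So were 2 of 6 stellate cell markers and 1 of 2 tested markers of B and plasma cells, while 1 of 6 endothelial markers was higher. Their part in the result was not tested.

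**Figure D2:**
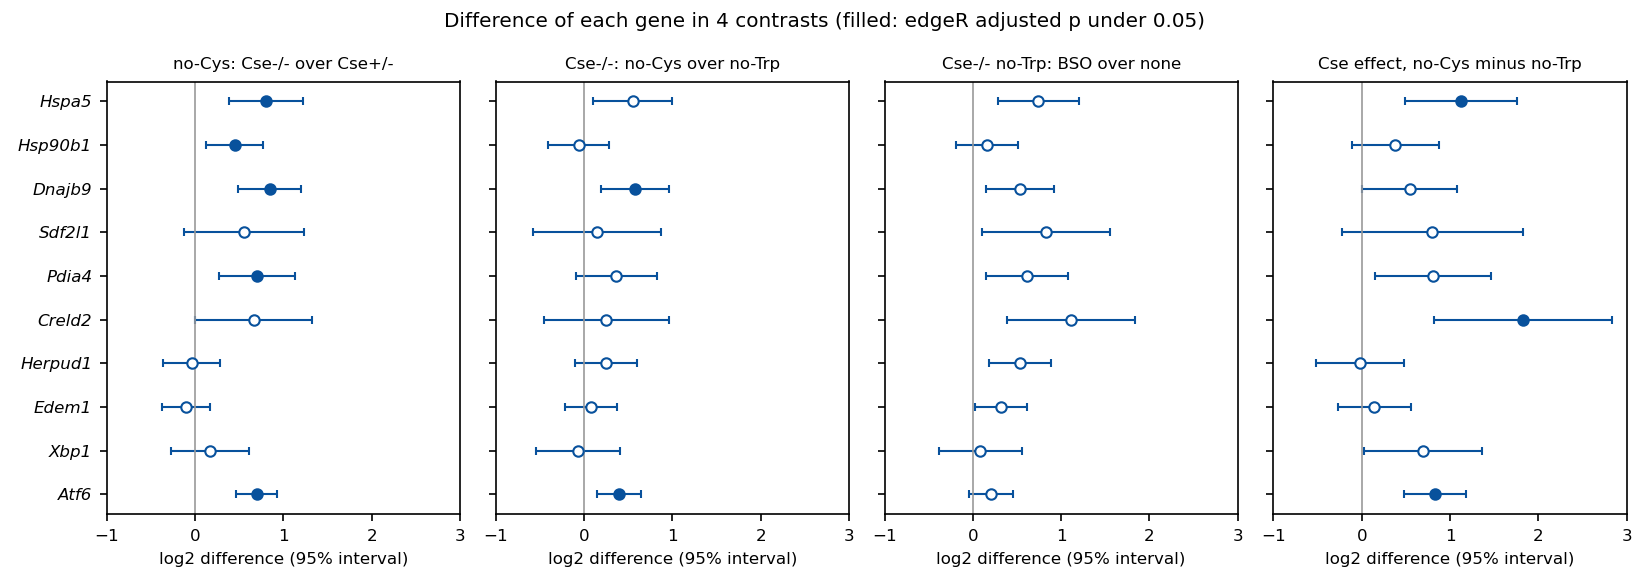
Log2 difference of each gene (points) with its 95% interval (bars) in 4 contrasts; filled points have an edgeR adjusted p under 0.05. Of the 10 genes, 5 are filled for genotype on no-Cys, 2 for no-Cys over no-Trp in *Cse*-/- mice, 0 for BSO, and 3 for the difference between diets in the effect of *Cse*.

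Other genes of the ER moved in part in the same contrast. Of 20 other ER chaperones and folding enzymes, 6 were higher, 1 was lower and 13 were not called. The largest called differences were in *Hyou1* (GRP170, a large ER chaperone; from 145 ± 28.7 to 280.4 ± 33.4 CPM, log2 0.96 ± 0.24, adjusted p = 0.00625), *Manf* (an ER-resident secreted factor; 0.74 ± 0.24) and *Hspa13* (0.65 ± 0.16). The lower gene was *Fkbp2*, a prolyl isomerase, at -0.31 ± 0.11, named here after its value was seen. Of 15 other genes of ER-associated degradation, 4 were higher and none lower, led by *Ubxn4* (0.85 ± 0.11), *Derl1* (0.49 ± 0.10) and *Selenos* (0.47 ± 0.13). Of 23 tested genes of ER translocation and the secretory path, 8 were higher and none lower, led by *Sec24d* (0.83 ± 0.15), which codes for a coat protein of vesicles leaving the ER, *Stt3a* (0.60 ± 0.12), a glycosylating enzyme, and *Sec23b* (0.56 ± 0.16). Of 5 genes of sensors and proteases, *Eif2ak3* rose by 0.73 ± 0.17 (adjusted p = 0.0034) and *Atf6b* by 0.51 ± 0.10, while *Ern1* gave 0.12 ± 0.15 (adjusted p = 0.586). Medians of these lists were 0.18, 0.25, 0.17 and 0.33, against -0.01 for all genes.

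Genes of the PERK and ATF4 branch, which a lack of amino acids also drives through GCN2, moved further. Of 18 genes, 11 were higher and 1 lower in the same contrast, with a median of 0.97 on the log2 scale. The largest differences were in *Psat1* (serine synthesis; 57.9 CPM in *Cse*-/- livers, 5.83 ± 0.40), *Asns* (asparagine synthetase; 5.54 to 117 CPM, 4.46 ± 0.51) and *Nupr1* (a stress-induced regulator; 0.510 to 7.09 CPM, 3.78 ± 0.63). The lower gene was *Cebpb*, at -0.68 ± 0.21, named after its value was seen. The mRNA of *Atf4* itself gave 0.41 ± 0.20 (adjusted p = 0.137) and that of *Ddit3*, which encodes CHOP, gave 0.46 ± 0.19 (adjusted p = 0.0823). Neither passed the test, and ATF4 is controlled mainly by translation, which counts do not show.

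The second question was whether the change was particular to cysteine. Among *Cse*-/- livers, 2 of the 10 genes were higher on no-Cys than on no-Trp and none was lower, where 5.05% of all genes were called higher and 5.35% lower. The no-Cys livers lay wholly above the no-Trp livers for 2 of the 10, against 10.2% of all genes. These were *Dnajb9*, which was called, and *Hspa5*, which was not. *Dnajb9* measured 114, 67.0 and 95.1 CPM on no-Trp, each below the lowest no-Cys liver at 126 CPM, and the difference was 0.58 ± 0.18 (1.49-fold, adjusted p = 0.0495). *Atf6* measured 63.8, 67.1 and 93.1 CPM on no-Trp, the last of them inside the no-Cys range, and its difference was 0.39 ± 0.12 (1.31-fold, adjusted p = 0.0400). *Hspa5* measured 772, 524 and 959.7 CPM, all below the no-Cys livers, but with a difference of 0.55 ± 0.22 (adjusted p = 0.109) it did not pass the test. Both calls were close to the threshold, since leaving out 1 library left at most 1 call and leaving out av05, av06, av07 or av15 left 0. The median of the 10 was 0.25, and it was 0.05 without av15, the *Cse*-/- no-Trp liver with the lowest level of 9 of the 10 genes.

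For *Hsp90b1*, the no-Trp livers measured 948, 512 and 667 CPM, a range that holds the whole no-Cys group, and the difference was -0.06 (95% interval -0.41 to 0.29). *Xbp1* (-0.07), *Edem1* (0.08), *Sdf2l1* (0.15), *Creld2* (0.25), *Herpud1* (0.25) and *Pdia4* (0.37) were not called either. In the other ER lists, 7 of 23 secretory path genes were higher (*Sec23b* 0.59 ± 0.17, *Sec24d* 0.58 ± 0.17 and *Stt3a* 0.49 ± 0.13), as were 3 of 20 chaperones and folding enzymes (*Hspa13* 0.75 ± 0.18, *Ero1l* 0.47 ± 0.14, an oxidase that forms disulfides, and *Dnajc10* 0.47 ± 0.12, a disulfide reductase). Of the degradation genes 2 of 15 were higher (*Ubxn4* 0.67 ± 0.12 and *Derl1* 0.43 ± 0.10), and of the sensors *Atf6b* (0.55 ± 0.11). None was lower in these lists. *Ern1* gave 0.50 ± 0.16 (adjusted p = 0.0509) and *Eif2ak3* 0.53 ± 0.17 (adjusted p = 0.0579). In the PERK and ATF4 branch 8 of 18 were higher, with a median of 0.75, led by *Mthfd2* (a mitochondrial folate enzyme; 2.67 ± 0.38), *Phgdh* (2.59 ± 0.66, with a mean under 1 CPM in every group) and *Asns* (2.31 ± 0.49). Of the 6 hepatocyte markers 4 were lower on no-Cys here too (median -0.48), as was 1 of 5 bile duct markers (median -0.60), and their part in these results was not tested.

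The effect of lacking *Cse* was then compared between the diets by an interaction term. As a signed log2 value, it was higher on no-Cys than on no-Trp for 3 of the 10 genes and lower for none. Of all genes, 1.67% were called higher and 2.69% lower. The 3 were *Atf6* (0.83 ± 0.17, adjusted p = 0.00837), *Hspa5* (1.13 ± 0.30, adjusted p = 0.0399) and *Creld2* (1.83 ± 0.48, adjusted p = 0.0366). Levels on no-Trp enter this term too. On no-Cys the effect was positive for *Atf6* (0.70), *Hspa5* (0.80) and *Creld2* (0.66). On no-Trp it was negative, at -0.13, -0.33 and -1.16, and for *Creld2* larger in size. None of the 3 was called on no-Trp, and *Creld2* was not called on no-Cys either. *Creld2* measured 277, 106 and 94.7 CPM in *Cse*+/- livers on no-Trp and 90.6, 39.0 and 82.3 CPM in *Cse*-/- livers on no-Trp, so the knockouts lay wholly below (-1.16 ± 0.36, adjusted p = 0.089). Without mouse av17 that difference was -0.51, and the interaction of *Creld2* was 1.17 in place of 1.83. *Hspa5* measured 1369.6, 808 and 651 CPM in those *Cse*+/- livers, with av17 above every *Cse*-/- liver on no-Cys. Its interaction was 0.76 without av17. Without av17, av02, av06 or av15 only *Atf6* was called in the interaction. *Creld2* was also not called without av01 or av16, nor *Hspa5* without av04, av05 or av14. *Atf6* was called in each of the 14 fits that left out 1 library. In this term 2 of 6 hepatocyte markers were called lower (median -0.33) and 1 of 6 endothelial markers higher, and their part in the result was not tested.

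On the no-Trp diet alone, none of the 10 genes differed between the genotypes by edgeR, where 2.64% of all genes did. At an unadjusted p under 0.05 there were 2 (*Creld2* and *Xbp1*, both lower in *Cse*-/-), against 18.4% of all genes, and DESeq2 called 0. The knockout livers lay wholly below for 1 of the 10, *Creld2*, against 9.51% of all genes. The median was -0.19, and it was -0.01 without av17. Hepatocyte markers summed to 73872 to 79846 CPM in these *Cse*-/- livers and 84998 to 93603 CPM in the *Cse*+/- livers. Bile duct markers summed to 27.6 to 46.2 and 48.3 to 62.4 CPM. None of these markers was called, and the part they play here was not tested.

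The next comparison added BSO, which depletes glutathione, to the no-Trp diet in *Cse*-/- mice. All 10 genes had a positive difference, with a median of 0.53 against -0.0048 for all genes, yet none passed the adjusted test, where 0.793% of all genes did. At an unadjusted p under 0.05 there were 7 of the 10, against 13% of all genes, and DESeq2 called 1, *Hspa5*. The BSO livers lay wholly above the livers without BSO for 5 of the 10 (*Hspa5*, *Creld2*, *Pdia4*, *Herpud1* and *Edem1*), against 6.47% of all genes. Without av15, the liver with low levels in the group without BSO, 8 of the 10 were positive and the median was 0.35.

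*Creld2* measured 175, 109.7, 158 and 169 CPM with BSO and 90.6, 39.0 and 82.3 CPM without it. The lowest BSO liver stood above the highest other liver, and the difference was 1.11 ± 0.35 (2.16-fold, adjusted p = 0.138). *Hspa5* measured 1209.9, 1038, 1261 and 1526 CPM with BSO, also above all 3 livers without it (0.74 ± 0.22, adjusted p = 0.118). *Sdf2l1* measured 71.6, 53.2, 72.5 and 64.5 CPM with BSO against 58.4, 18.8 and 33.0 CPM, and mouse av14 of the group without BSO reached into the BSO range (0.83 ± 0.35, adjusted p = 0.294). *Pdia4* measured 292, 237, 295 and 332 CPM against 219, 144 and 204 CPM (0.61 ± 0.22, adjusted p = 0.207). The degradation genes, which lay near 0 by genotype on no-Cys, were on the positive side here. *Herpud1* measured 841, 642, 831 and 883 CPM with BSO against 597, 425 and 635 CPM (0.53 ± 0.17, adjusted p = 0.15), and *Edem1* 176, 166, 183 and 212 CPM against 149, 135 and 159 CPM (0.32 ± 0.14, adjusted p = 0.323). The groups did not overlap for either gene. *Dnajb9* gave 0.53 ± 0.18 (adjusted p = 0.188), *Atf6* 0.21 ± 0.12, *Hsp90b1* 0.16 ± 0.17 and *Xbp1* 0.08 ± 0.23.

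Of the other ER genes, *Syvn1*, which encodes the ubiquitin ligase HRD1 of ER-associated degradation, passed the test with BSO, from 88.1 ± 26.9 to 200.3 ± 36.1 CPM (1.18 ± 0.23, adjusted p = 0.0156). *Atf6b* did so as well (0.52 ± 0.11, adjusted p = 0.0230). None of the 20 chaperones and folding enzymes, of the 23 secretory path genes or of the 18 genes of the PERK and ATF4 branch was called, and at an unadjusted p under 0.05 there were 4, 8 and 4. The chaperones had 18 of 20 positive differences (median 0.15), and the PERK and ATF4 branch 11 of 18 (median 0.18). *Ddit3* gave 0.53 ± 0.20 (adjusted p = 0.216), *Atf4* 0.10 ± 0.21, *Eif2ak3* 0.48 ± 0.17 (adjusted p = 0.202) and *Ern1* 0.40 ± 0.16 (adjusted p = 0.261). The 6 hepatocyte markers had a median of 0.11 in this contrast, with none called.

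**Figure D3:**
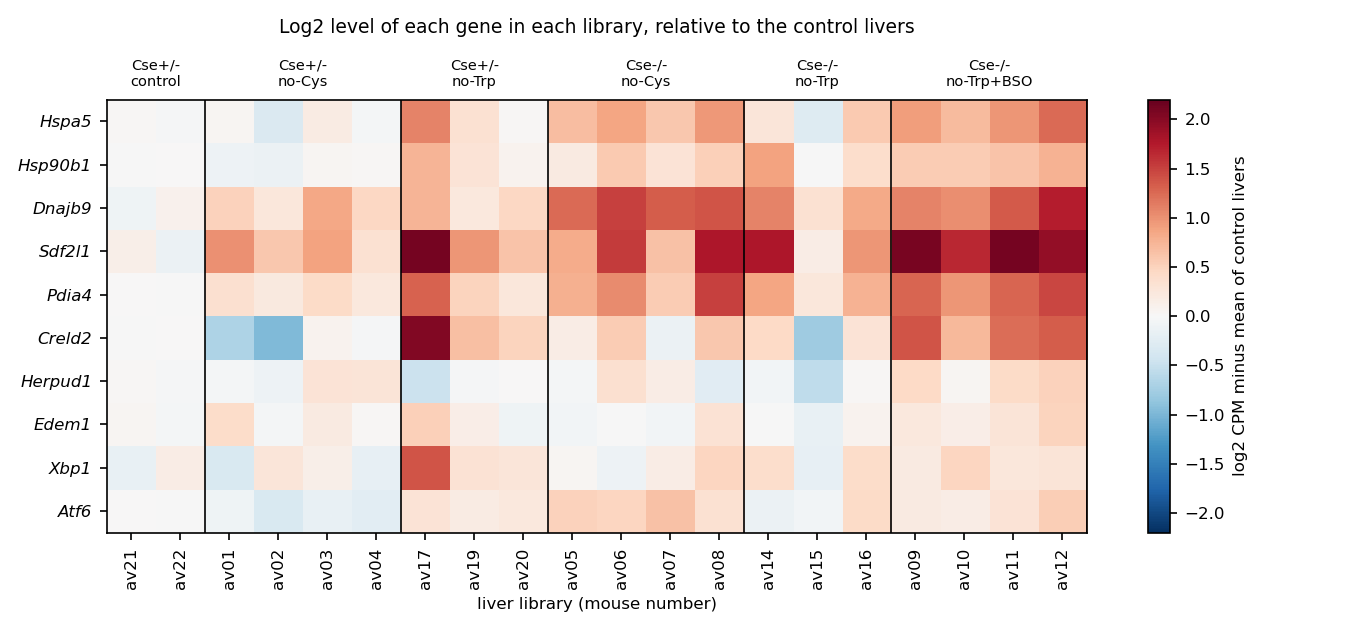
Log2 CPM (prior count of 2) of the 10 genes in each liver library, minus the mean of the 2 control livers, from blue (lower) to red (higher); columns are mice, grouped by genotype and diet. Mouse av17 (*Cse*+/- no-Trp) is high for most genes, av15 (*Cse*-/- no-Trp) is the lowest of its group for 9 of the 10, and *Sdf2l1*, *Dnajb9*, *Pdia4* and *Creld2* are high throughout the no-Trp + BSO group.

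Cysteine lack and no-Trp + BSO were then set against each other in *Cse*-/- mice. None of the 10 genes was called by edgeR, where 2.75% of all genes were, and DESeq2 called 0. At an unadjusted p under 0.05 there were 2, *Creld2* and *Sdf2l1*, both lower on no-Cys, against 20% of all genes. *Creld2*, at 61.1 to 102 CPM on no-Cys and 109.7 to 175 CPM on no-Trp + BSO, was the 1 gene of the 10 without overlap, which 6.24% of all genes showed in that direction (-0.86 ± 0.31, adjusted p = 0.133). *Dnajb9* was close in the means, 138 ± 10.4 and 133 ± 31.1 CPM, with an interval of -0.30 to 0.40. *Atf6* leaned to no-Cys (0.19, interval -0.04 to 0.41) and *Hspa5* to no-Trp + BSO (-0.19, interval -0.61 to 0.22), and both intervals hold 0. Across the 10 the median was -0.23, with 8 negative.

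Of the 18 genes of the PERK and ATF4 branch 6 were higher on no-Cys and none lower in this contrast, with a median of 0.71. *Phgdh* (3.27 ± 0.61), *Psat1* (2.43 ± 0.30) and *Mthfd2* (2.1 ± 0.33) led, while *Atf4* (0.12 ± 0.19) and *Ddit3* (-0.04 ± 0.18) mRNA were not called. Among the other ER genes, *Derl1* was higher on no-Cys (0.51 ± 0.10, adjusted p = 0.0109) and *Fkbp2* was lower (-0.44 ± 0.11, adjusted p = 0.0338). *Eif2ak3* and *Ern1* gave 0.05 ± 0.16 and 0.10 ± 0.15. Of the hepatocyte markers, 3 of 6 were lower on no-Cys, with a median of -0.53. Of the bile duct markers, 2 of 5 were lower (median -0.76, all 5 negative), and 1 of 6 stellate cell markers was higher. Their part in the result was not tested.

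The ER genes and the PERK and ATF4 branch were also set side by side. As the mean log2 level relative to the control livers, the 10 ER genes stood at 0.85 ± 0.16 (SD) on no-Trp + BSO, 0.57 ± 0.17 in *Cse*-/- on no-Cys, 0.52 ± 0.40 in *Cse*+/- on no-Trp, 0.30 ± 0.37 in *Cse*-/- on no-Trp and 0.11 ± 0.14 in *Cse*+/- on no-Cys. The spreads of neighbouring groups overlap in this order. For the 18 branch genes the values were 0.91 ± 0.20, 1.65 ± 0.51, 0.38 ± 0.10, 0.82 ± 0.13 and 0.10 ± 0.05. Within the *Cse*-/- livers on no-Cys, av08 had the highest mean of the ER genes (0.76) and the lowest mean of the branch (0.91), where the other 3 livers lay between 1.77 and 2.08. Among the *Cse*+/- livers on no-Trp, av17 stood at 0.98 for the ER genes and 0.31 for the branch. These means describe the livers and carry no test.

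**Figure D4:**
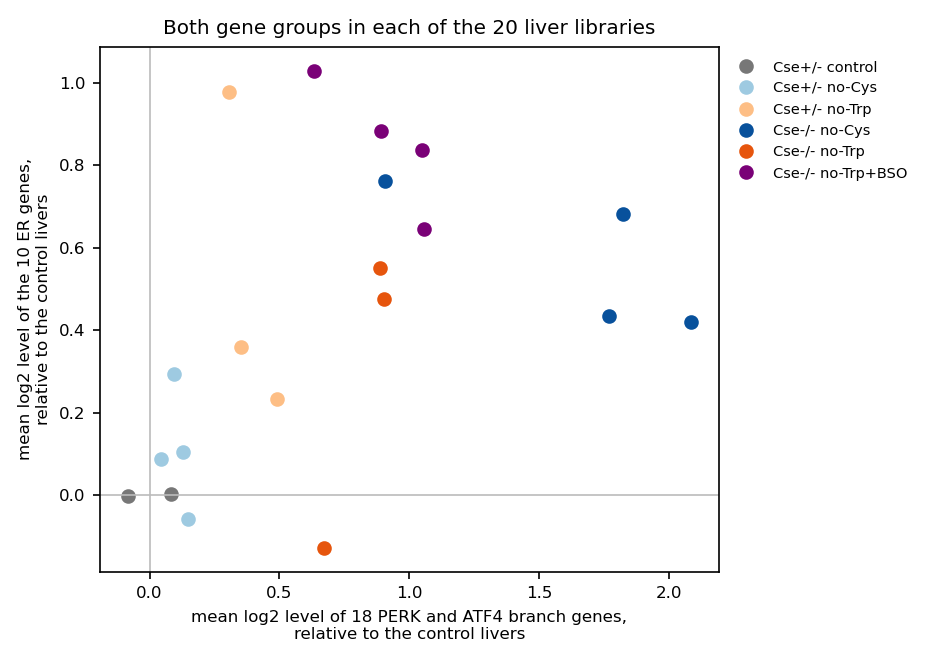
Mean log2 level of the 10 ER genes (y axis) against that of 18 genes of the PERK and ATF4 branch (x axis) in each of the 20 liver libraries, both relative to the mean of the 2 control livers; each point is a mouse, coloured by group. Of the *Cse*-/- no-Cys livers, 3 lie far to the right (1.77 to 2.08) at an ER level of 0.42 to 0.68, and the no-Trp + BSO livers lie at an ER level of 0.64 to 1.03 with a branch level of 0.63 to 1.06.

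Mice with a working *Cse* allele gave the background of the diets themselves. Between no-Cys and the control diet none of the 10 genes was called by edgeR or DESeq2, where 2.18% of all genes were by edgeR, and 1 (*Dnajb9*, 0.53 ± 0.21) had an unadjusted p under 0.05, against 16.6%. *Hspa5* gave -0.02 with an interval of -0.53 to 0.49, so that with 2 control livers only a large change could have been seen. Of the sensors and of the branch, *Ern1* (0.74 ± 0.19, adjusted p = 0.042) and *Trib3* (1.20 ± 0.28, adjusted p = 0.0247) were higher on no-Cys, the latter named after its value was seen. On no-Trp 9 of the 10 genes were above the control diet, with a median of 0.52. None was called by edgeR or DESeq2, where 0.0474% of all genes were by edgeR, and 6 had an unadjusted p under 0.05, against 9.29%. The median was 0.25 without av17. Hepatocyte markers summed to 84998 to 93603 CPM on no-Trp and 116976 to 117467 CPM on the control diet. None of them was called against the control diet on either deficient diet, while 1 of 5 bile duct markers was lower on no-Cys. The part these markers play was not tested.

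The diets differed in these *Cse*+/- mice for 3 of the 10 genes, all lower on no-Cys than on no-Trp, where 3.41% of all genes were called lower. The no-Cys livers lay wholly below for 4 of the 10, these 3 and *Hsp90b1*, against 8.56% of all genes. *Creld2* measured 42.1, 34.1, 71.0 and 65.7 CPM on no-Cys and 277, 106 and 94.7 CPM on no-Trp (-1.57 ± 0.34, adjusted p = 0.00845). *Xbp1* measured 155, 234, 214 and 172 CPM against 511, 243 and 235 CPM (-0.77 ± 0.22, adjusted p = 0.0411), so that outside av17 the groups all but touch. *Atf6* measured 55.5 to 65.2 CPM against 85.4, 78.7 and 81.6 CPM (-0.44 ± 0.12, adjusted p = 0.0286), with the 3 no-Trp livers close together and clear of the no-Cys livers. Without av17 none of the 3 was called, by a fit in which the no-Trp group holds 2 mice, and the difference was -0.91 for *Creld2* and -0.30 for *Xbp1*. *Xbp1* was also not called without av01, av03 or av04. *Atf6* was called only when av01 was the library left out, although its difference stayed between -0.47 and -0.40 in all 7 fits. Of the cell type markers, 2 of 6 endothelial genes were lower on no-Cys (down to -0.90), with a summed level of 157 to 195 CPM against 159 to 186. Of 6 hepatocyte markers none was called, and 4 had an unadjusted p under 0.05 (median -0.19). Their part in the result was not tested.

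Over the 20 libraries most of the 10 genes varied together. The correlation of log2 CPM was positive in 44 of 45 pairs, with a median Pearson r of 0.59, a highest of 0.93 and a lowest of -0.30. Against the mean of the other 9, r was 0.96 for *Hspa5*, 0.93 for *Pdia4*, 0.89 for *Sdf2l1*, 0.86 for *Hsp90b1*, 0.84 for *Creld2* and 0.76 for *Dnajb9*, the folding genes. It was 0.59 for *Atf6*, 0.58 for *Edem1*, 0.48 for *Xbp1* and 0.25 for *Herpud1*. Of 9429 other genes with a mean of at least 5 CPM, the 8 most like the mean of the 10 were *Hyou1* (r = 0.97), *Manf* (0.95), *Syvn1* (0.95), *Magt1* (0.94), *Ubfd1* (0.93), *Ostc* (0.92), *Tmed3* (0.91) and *Atg13* (0.91). The first of them are an ER chaperone, an ER-resident factor and an ER ubiquitin ligase, and *Magt1* and *Ostc* encode subunits of the oligosaccharyltransferase. The libraries share their groups and their scaling, so these values are descriptions.

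Genes other than the 10 with the same promoter letters were counted in the first contrast, genotype on no-Cys. Of 15 tested genes with an ER stress response element 2 were called higher and 1 lower, and of 7 with its second form 2 were higher and none lower. Of 105 with the unfolded protein response element 27 were higher (25.7%) and 8 lower, and of 64 with the C/EBP-ATF element 13 were higher (20.3%) and 7 lower, where 12.7% of the 10444 tested genes with a promoter window were higher. With BSO the counts of higher genes were 1, 0, 0 and 1, against 0.565% of genes with a window, and 1 gene with the ER stress response element was lower.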

How the data were processed

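Polyadenylated RNA of mouse liver was sequenced, and the table deposited by the authors holds raw read counts per gene. Per the labels' processing notes, HISAT2 2.1.0, HTSeq 0.11.0 and GRCm38 were used. Its 21 columns are named by mouse number and not by sample title. Groups are those of the labels, and 20 columns were tied to them through the study's list of mice for the experiment named in the sample titles, while 1 column in no group of that list was not used. Symbols and positions came from GENCODE for 45229 of 46078 genes, while 849 had no symbol, and promoters came from RefSeq (GRCm38.p6), where *Atf6* had no entry.

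The counts were analysed in R 4.3.3 with edgeR 4.0.16 (limma 3.58.1): filterByExpr (minimum count 10, minimum total 15), TMM factors, 1 fit over 20 libraries with a mean for each of 6 groups (common dispersion 0.027), quasi-likelihood tests, two-sided, and Benjamini-Hochberg adjustment over 14759 genes at 0.05. Levels are TMM-scaled CPM, and log2 CPM used a prior count of 2. Each comparison was repeated with DESeq2 1.42.0 and with other scaling, filters, samples, threshold and depth. Replicate pairs differed beyond sampling noise (chi-square per gene 9.60 to 64.2 over 25 pairs). No source used here states the strand setting of the counting, so overlapping antisense genes cannot be told apart. Figures were drawn with matplotlib 3.10.9 (Python 3.11.15, pandas 2.3.3, numpy 2.4.6). The code was tested on simulated data.

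The members, lists and tests were chosen with earlier results of these data known. Named were the 10 members in every comparison, the 3 genes called with the largest change in each other list for comparisons within *Cse*-/- mice or on no-Cys, *Ern1*, *Eif2ak3*, *Atf4*, *Ddit3* and *Cth* throughout, and the 8 genes with at least 5 CPM most like the mean of the members. Depth was 11785740 to 57986121 counts per library, so counting error is small beside the spread between mice.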

Additional observations from a re-analysis of the deposited data

Results flagged for a closer look

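Among 30 pairs of a member and a group of 4 livers, 1 liver stood far from the others of its group. *Edem1* measured 188 CPM in mouse av08, a *Cse*-/- liver on no-Cys, where the nearest of the other 3 had 149. Chance alone gives such a gap in about 1 in 20 groups. The effect of lacking *Cse* differed between the no-Cys and no-Trp diets, by the interaction term in edgeR, for *Creld2* (log2 difference of differences 1.83, adjusted p = 0.0366), *Atf6* (0.83, adjusted p = 0.00837) and *Hspa5* (1.13, adjusted p = 0.0399). *Atf6* kept its call without each single library, while *Creld2* and *Hspa5* lost it without av17, among others.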

How the results depend on the processing

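Counts of the 10 genes called did not move with RLE size factors or with a minimum mean CPM of 1. With DESeq2, 1 gene was called for BSO against none in *Cse*-/- mice on no-Trp (0 with edgeR). For no-Cys against no-Trp in *Cse*-/- mice, where 2 were called, 1 was called with upper-quartile factors, without a filter on low counts or with libraries thinned to the shallowest, and 0 in a fit of those groups only or at an adjusted p under 0.01. Without a filter, 2 were called for BSO, and 1 each for no-Cys against no-Trp + BSO, for genotype on no-Trp and for no-Trp against control in *Cse*+/- mice. In fits of the compared groups only, 1 was called for no-Cys against no-Trp + BSO and 1 for the interaction. For genotype on no-Cys, 4 were called with upper-quartile factors (*Hsp90b1* lost) and 6 without a filter (*Creld2* gained). For no-Cys against no-Trp in *Cse*+/- mice, 2 were called in the fit of those groups only (*Xbp1* lost) and with thinned libraries (*Atf6* lost), and 4 without a filter (*Hspa5* gained). At an adjusted p under 0.01, 3 were called for genotype on no-Cys, 1 for no-Cys against no-Trp in *Cse*+/- mice and 1 for the interaction. The cause of these shifts was not tested. Leaving out 1 library gave 3 to 5 calls for genotype on no-Cys, 0 to 1 for no-Cys against no-Trp in *Cse*-/- mice, 1 to 3 for the interaction, 0 to 3 for no-Cys against no-Trp in *Cse*+/- mice, and 0 to 0 in the other 5 comparisons. The sign changed without 1 library in 20 of 90 pairs of a gene and a comparison, none with a log2 difference over 0.33 in size. For no-Cys against no-Trp in *Cse*-/- mice the log2 ranges were *Creld2* -0.043 to 0.47, *Edem1* -0.019 to 0.13, *Hsp90b1* -0.26 to 0.21, *Sdf2l1* -0.17 to 0.65 and *Xbp1* -0.24 to 0.022. For no-Cys against no-Trp + BSO the log2 range was *Dnajb9* -0.033 to 0.22. For no-Cys against no-Trp in *Cse*+/- mice the log2 ranges were *Dnajb9* -0.086 to 0.18 and *Edem1* -0.19 to 0.12. For the interaction the log2 ranges were *Edem1* -0.038 to 0.28 and *Herpud1* -0.17 to 0.13. For genotype on no-Cys the log2 range was *Herpud1* -0.15 to 0.053. For genotype on no-Trp the log2 ranges were *Herpud1* -0.16 to 0.13, *Hsp90b1* -0.21 to 0.28, *Hspa5* -0.54 to 0.043, *Pdia4* -0.30 to 0.28 and *Sdf2l1* -0.76 to 0.31. For BSO the log2 ranges were *Hsp90b1* -0.037 to 0.42 and *Xbp1* -0.095 to 0.17. For no-Cys against control in *Cse*+/- mice the log2 ranges were *Hspa5* -0.088 to 0.066 and *Xbp1* -0.18 to 0.15. With thinned libraries *Hspa5* (0.0066) and *Xbp1* (0.0064) changed sign for no-Cys against control in *Cse*+/- mice, where both were near 0. No scaling moved the median of all genes by more than 0.03 (log2). No paired analysis was possible because the columns carry mouse numbers and not the replicate numbers of the labels, so the planned fit with a replicate block was not run. Groups of 2 to 4 mice limit what could be called, above all against the 2 control livers.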
